A study of Mus musculus with 12 samples.

Results

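The nuclear-encoded subunits of the mitochondrial respiratory chain and of ATP synthase were followed across 4 culture conditions of a mouse astrocyte line. A gene was included where its mouse symbol begins with Nduf, Uqcr or Atp5, or with Cox and a single digit from 4 to 8, where it is not marked as a pseudogene, and where it reached at least 1 TPM in at least 3 of the 12 libraries. TPM is a transcript level corrected for transcript length and scaled so that each library sums to 1000000. Of 21959 genes listed, 91 had a matching symbol and 87 met the level: 36 subunits of complex I, 8 assembly factors of complex I, 8 subunits of complex III, 18 of complex IV and 17 genes of ATP synthase. Ndufa4 and Ndufa4l2 are counted with complex IV, and Cox7a2l with complex IV as well.

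The libraries came from C8-D1A, an established line of mouse astrocytes, after 24 h in 1 of 4 conditions. Cells were held under 15% CO2, in medium with 20 mM lactic acid, in medium with NaHCO3 lowered to 0.2 g/L, or as control at 37 °C and 5% CO2, with 3 libraries each. Each of the 3 treatments is described as an extracellular acidification. No pH is used here, and nothing says whether the 3 libraries of a condition came from separate cultures, so a p-value measures the spread between these libraries only.

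Complex I takes electrons from NADH, complex III passes them from ubiquinol to cytochrome c, complex IV hands them to oxygen, and all of them move protons across the inner mitochondrial membrane. ATP synthase lets the protons flow back and makes ATP. Most subunits are encoded in the nucleus and are built together with a smaller number encoded by mitochondrial DNA, with the help of assembly factors. Several complex IV subunits exist as pairs of isoforms, one found in most tissues and the other mainly in heart and skeletal muscle, or induced by low oxygen.

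Some libraries stood apart from their group. Control 1 held transcripts of other brain cells: the summed level of 7 neuronal markers was at or below 1.11 TPM in the treated libraries, against 0.215 to 2076 TPM in controls, with control 1 the highest for all 7. Control 1 was also the highest library for 6 of 6 oligodendrocyte, 5 of 5 microglial, 4 of 4 endothelial and 4 of 4 red blood cell markers. Of 10 astrocyte markers, some were nearly absent outside control 1: Slc1a3 reached at most 0.0240 TPM, Aqp4 0.356 TPM and Gfap 1.19 TPM there. Others, such as Vim and Sox9, were present, and 4 of the 10 entered the tests. The 10 together summed to between 1467 and 2792 TPM in the treated libraries. Lactic acid 3 and 15% CO2 3 were low in short transcripts. The counts of members in each comparison with control are therefore given with and without control 1, a named gene's value without it where that ends or makes a call or moves a called value by over 1.5 times, and lactic acid 3 and 15% CO2 3 are named where they change a count.

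Member transcripts were abundant and short. The median member averaged 129.9 TPM over the 12 libraries. Atp5b, the catalytic beta subunit of ATP synthase, averaged 1491 TPM, and Cox8a, a small complex IV subunit, 1203 TPM. The least abundant members were Cox4i2 at 0.666 TPM, Ndufa4l2 at 1.64 TPM, Cox7a1 at 3.13 TPM and Cox8b at 3.28 TPM, all of them alternative isoforms. The median transcript length of the members was 742 nt, against 2683 nt over the tested genes with a length, and 58 of the 87 members were at most 1000 nt long. All 87 but Cox4i2 entered the tests, which required 1 TPM in all 3 libraries of at least 1 condition. Cox8b passed that filter only through the 15% CO2 and control libraries, and Ndufa4l2 only through the 15% CO2, lactic acid and control libraries.

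Summed over all members, the transcripts reached lower levels in 2 libraries than in the other 10. The sum was 16664, 18220 and 14072 TPM in the 15% CO2 libraries and 18313, 18023 and 11467 TPM in the lactic acid libraries. It was 19101, 18979 and 20304 TPM in the low NaHCO3 libraries, against 17958, 20151 and 19584 TPM in the controls. Lactic acid 3 and 15% CO2 3 were the lowest 2 libraries, and the range of each treatment overlapped that of the controls. The same 2 libraries had the highest sums of the mitochondrially encoded subunit transcripts, 248003 TPM in 15% CO2 3 and 278249 TPM in lactic acid 3, against 104049 to 203698 TPM in the other 10, and all of these share the fixed TPM total. The part of these transcripts in the members' levels was not tested. By complex, the low NaHCO3 mean was 4818 ± 183 TPM for complex I, against 5295 ± 134 TPM in controls, while for complex IV it was 6043 ± 257 TPM, against 5519 ± 385 TPM, and for ATP synthase 5979.6 ± 169.9 TPM, against 5609 ± 464 TPM (SD, n = 3 libraries each). In bulk RNA, fewer cells of a type and less RNA per cell cannot be told apart.

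**Figure D1:**
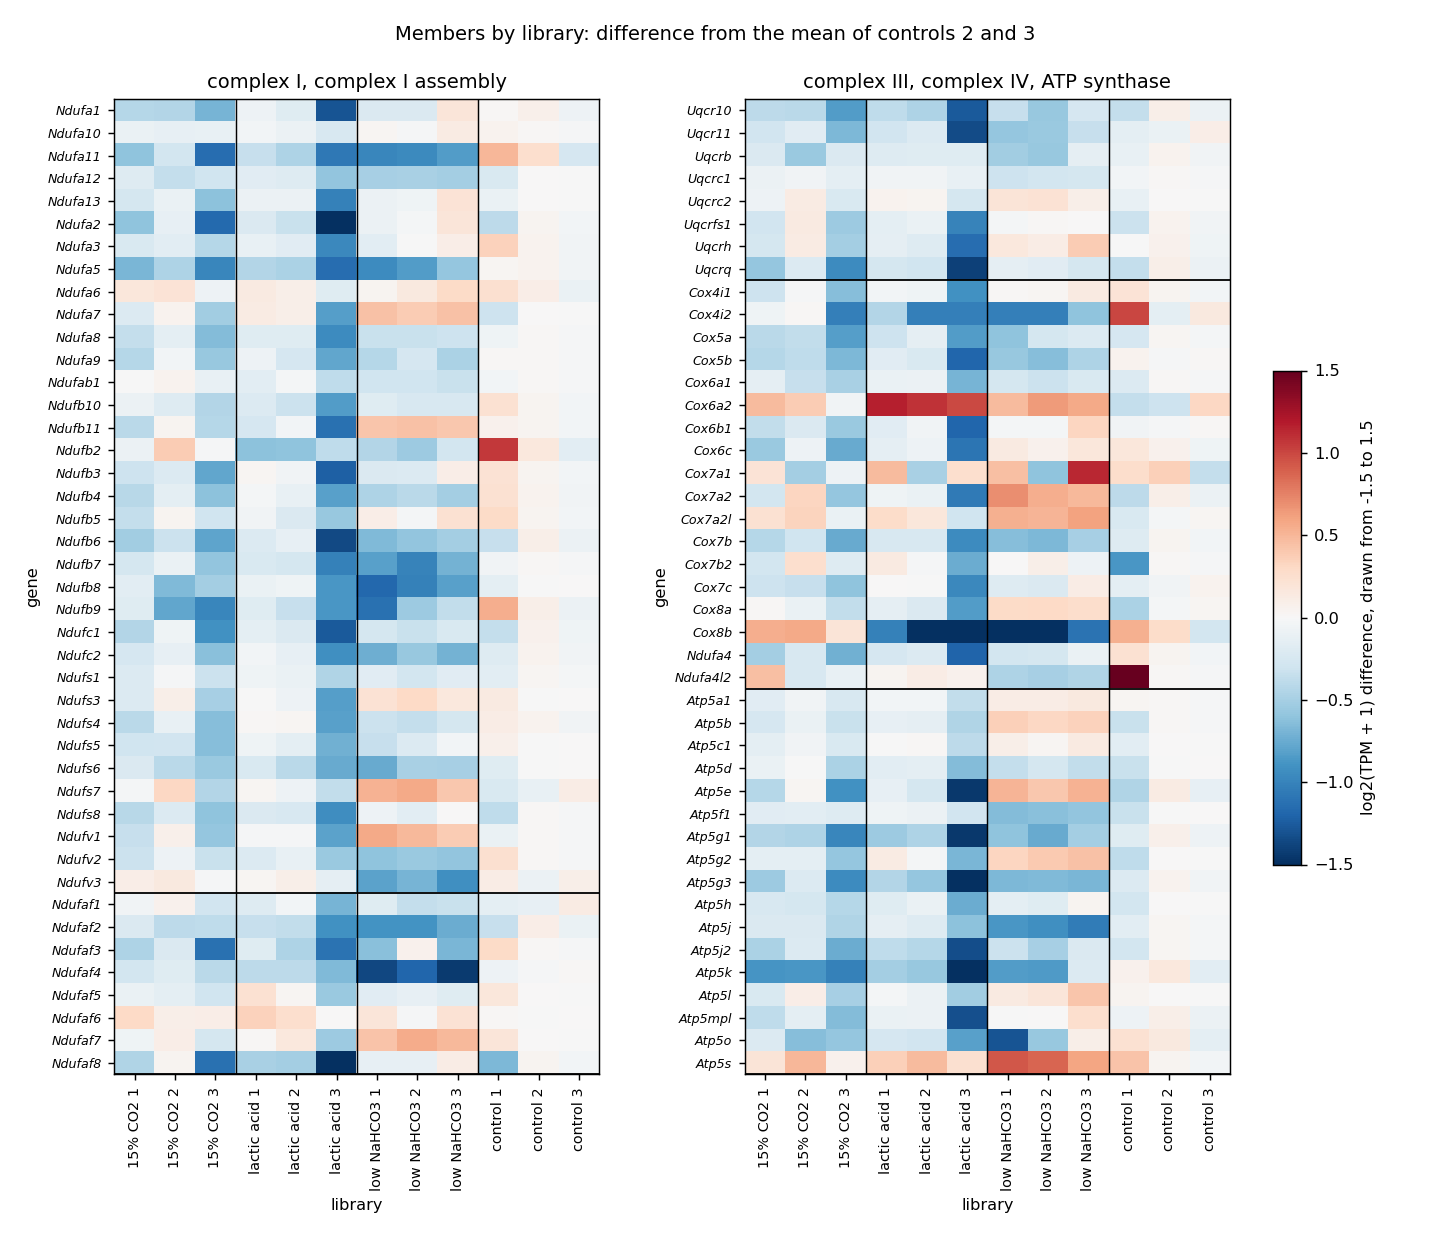
Each row is a member (86 of the 87 are drawn) and each column a library; color gives the log2(TPM + 1) difference from the mean of controls 2 and 3, drawn from -1.5 to 1.5, and black lines separate complexes and conditions. Lactic acid 3 and 15% CO2 3 are blue across most rows, while the low NaHCO3 columns hold both blue rows, such as Ndufaf4, and red rows, such as Cox7a2l.

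The 2 libraries with the lowest members were also the lowest for short transcripts in general, while the other 10 did not keep the same order on both measures. Relative to the mean of controls 2 and 3, the median member differed by -0.26, -0.12 and -0.52 on the log2(TPM + 1) scale in the 15% CO2 libraries and by -0.13, -0.13 and -0.82 in the lactic acid libraries. It differed by -0.22, -0.24 and -0.13 in the low NaHCO3 libraries, against -0.08 in control 1. Over the 1039 tested transcripts of at most 1000 nt, the same median was -0.28 in 15% CO2 3 and -0.46 in lactic acid 3, the lowest 2 of the 12 libraries on both measures. Control 1 came next for short transcripts, at -0.17, with a member median of -0.08, and the low NaHCO3 libraries, at -0.11, -0.10 and -0.08 for short transcripts, had the lower member medians given above. The part of transcript length in the members' levels in these libraries was not tested beyond the fit with a length trend removed, given below.

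**Figure D2:**
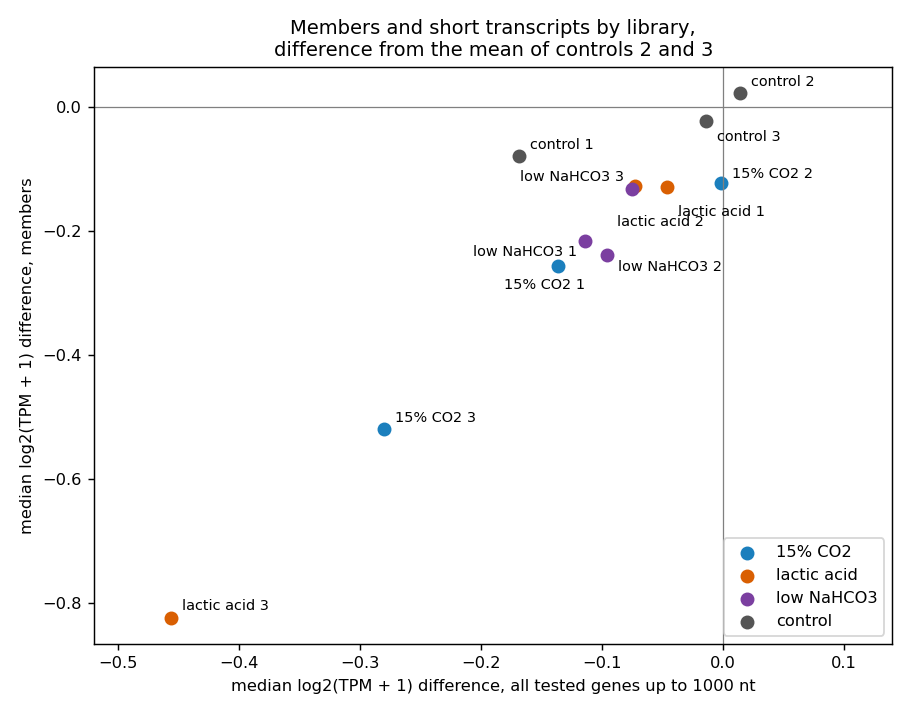
Each point is a library; the x axis is the median log2(TPM + 1) difference from the mean of controls 2 and 3 over all tested transcripts of at most 1000 nt, and the y axis is the same median over the members. Lactic acid 3 (-0.46 and -0.82) and 15% CO2 3 (-0.28 and -0.52) lie at the lower left, away from the other 10 libraries.

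Low NaHCO3 was the condition with the most members called against control, in both directions, but the share called was smaller than that of all tested genes. Changes were tested with limma, a linear model fitted to log2(TPM + 1) of all 11996 tested genes, and a member is called higher or lower where its p, adjusted by Benjamini-Hochberg over those genes, is under 0.05. A log2 change on this scale understates the change of a gene of few TPM. In low NaHCO3 cells, 8 of the 86 tested members were higher and 23 lower than in controls, while over all tested genes 56.2% were called, 20.5% higher and 35.8% lower. Of the 23, Cox8b and Ndufa4l2 entered the tests only through groups in which they were high, so their part in the count is a description. The members' median log2 change was -0.19, as was the median of all tested genes, and 36.0% of the members were called. Without control 1, 6 members were higher and 21 lower, each of them also called with it, against 23.3% and 41.4% of all genes, and the 4 calls lost were those of Cox7a2, Atp5g2, Cox5b and Ndufb4. Lactic acid 3 enters this comparison through the shared estimate of the spread and the set of genes tested. Without it 13 members were higher and 32 lower, against 2539 and 4302 of 11934 tested genes. Without low NaHCO3 1 or low NaHCO3 2 the counts were 4 higher and 14 lower, and 4 higher and 16 lower.

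The split of higher and lower depended on how libraries were scaled. With median-of-ratios scaling, which moved the median of all tested genes to -0.01, 20 members were higher and 11 lower, against 29.7% of all genes higher and 27.1% lower. All 8 members called higher on the TPM scale stayed called, with 12 more, and 11 of the 23 called lower stayed called. Quantile normalization moved the median of all tested genes to 0.0036, but the member median stayed at -0.21. With it 7 members were higher and 25 lower, against 3054 and 2732 of 11996 tested genes. Without the mitochondrial and 10 most abundant genes, 9 members were higher and 37 lower, against 2145 and 5037 of 11980 genes. The mitochondrially encoded subunit transcripts, which share the same TPM total, summed to between 104049 and 108557 TPM in low NaHCO3 libraries, against 156253 to 197262 TPM in controls.

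**Figure D3:**
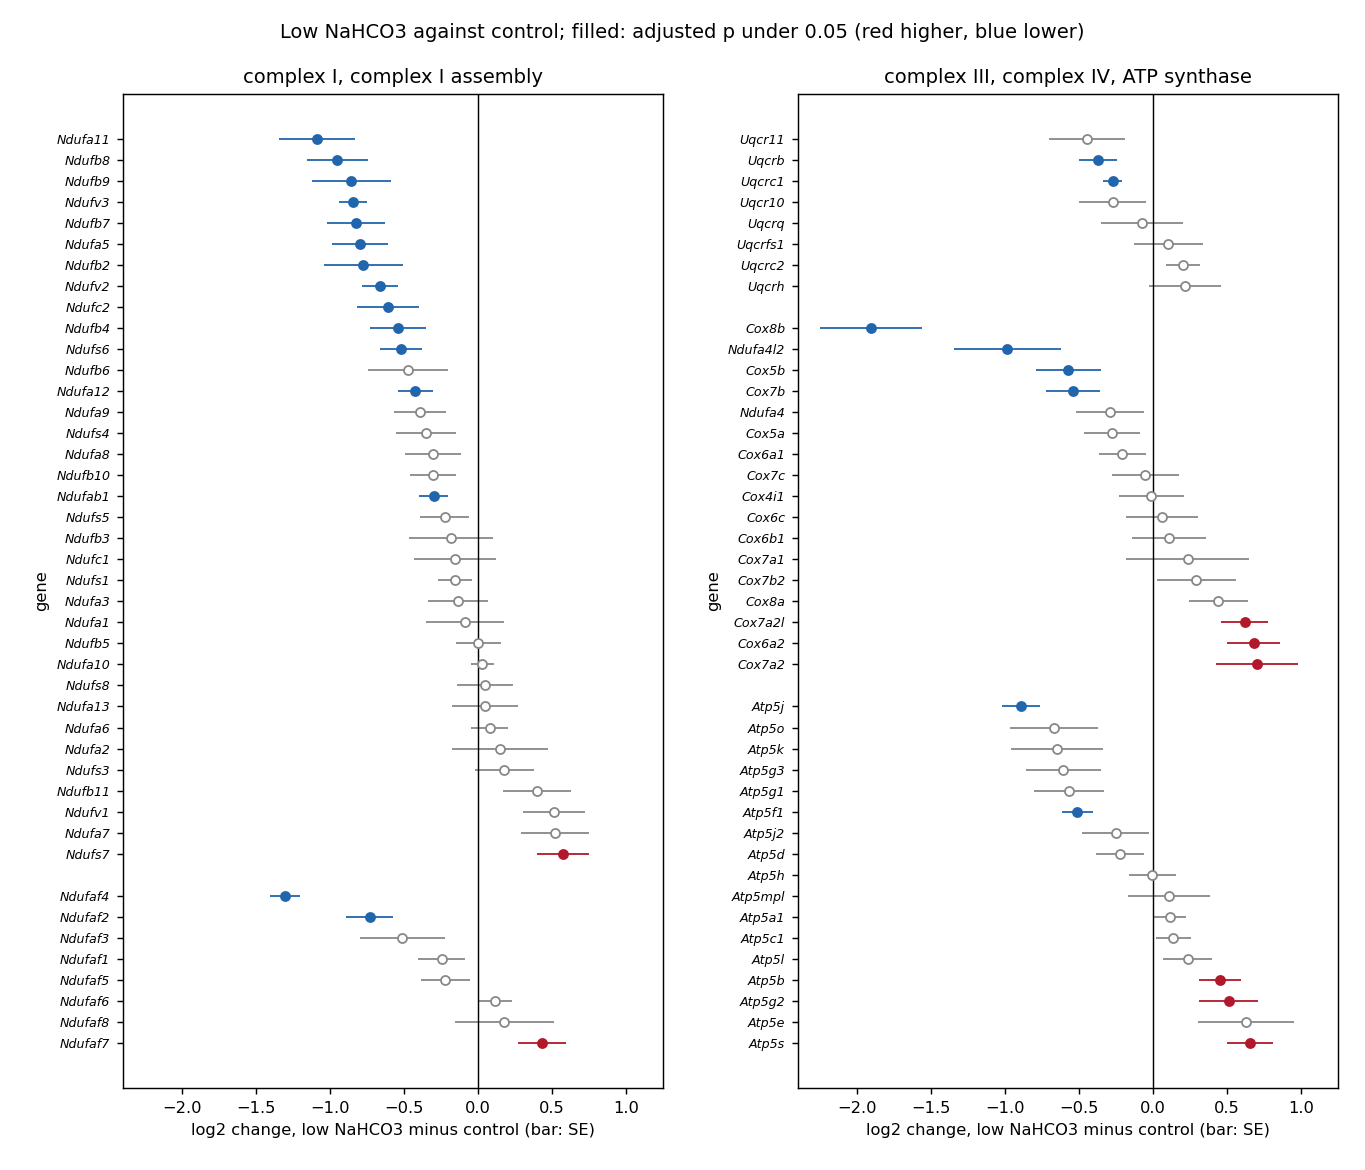
Each point is the log2(TPM + 1) change of a tested member in low NaHCO3 cells relative to control (1 tested member is not drawn), with its SE, sorted within each complex; filled points had an adjusted p under 0.05 in limma, red higher and blue lower. Of the complex I subunits 13 of 36 were lower and 1 higher, and of the tested members of complex IV and of ATP synthase 3 of 17 each were higher. Over all tested genes, 20.5% were higher and 35.8% lower. Cox8b and Ndufa4l2 entered the tests only through groups in which they were high.

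Of the 36 complex I subunits 13 were lower and 1 higher, and the share lower, 36.1%, was close to the 35.8% of all tested genes. With median-of-ratios scaling 6 were lower and 6 higher. Of its 7 core subunits, which carry the flavin, the iron-sulfur clusters and the quinone site, 1 was higher and 1 lower. Of the 29 accessory subunits, 12 were lower and 0 higher. With median-of-ratios scaling, 3 core subunits were higher and 1 lower, and 3 accessory subunits were higher and 5 lower.

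The 3 Ndufv genes encode subunits of the module that oxidizes NADH. Ndufv3, an accessory subunit of that module, measured 30.7, 33.0 and 28.3 TPM in low NaHCO3 libraries, against 58.6, 51.2 and 57.7 TPM in controls. The low NaHCO3 libraries lay well below all controls, and the level fell by 0.84 on the log2 scale (SE 0.09, adjusted p = 3.34e-05 in limma, and 2.44e-05 without control 1). The values were 58.4, 60.2 and 53.7 TPM under 15% CO2 and 55.5, 57.7 and 49.2 TPM with lactic acid, within or close to the control range. Ndufv2, an iron-sulfur subunit, was at 111, 116 and 113 TPM in low NaHCO3 libraries, against 201, 173 and 168 TPM in controls. It fell by 0.66 (SE 0.12, adjusted p = 0.000998 in limma). Ndufv1, which binds NADH and the flavin, was at 260.3, 247 and 229 TPM in low NaHCO3 libraries, against 164, 177 and 173 TPM in controls. These ranges do not overlap either, but the log2 change of 0.51 ± 0.21 (SE) missed the threshold in limma, with an adjusted p of 0.0554, and reached it with median-of-ratios scaling, at 0.71 and an adjusted p of 0.00575. Ndufs7, the core subunit with the last iron-sulfur cluster before ubiquinone, was higher, at 129, 134 and 119 TPM in low NaHCO3 libraries, against 76.1, 82.9 and 96.7 TPM in controls. Its log2 change was 0.58 ± 0.17 (SE), with an adjusted p of 0.016 in limma and 0.0328 without control 1.

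Among the accessory subunits called lower in low NaHCO3 cells, Ndufa11 and Ndufb8 fell most. Ndufb8 measured 38.9, 43.6 and 50.4 TPM in low NaHCO3 libraries, against 80.2, 88.6 and 89.5 TPM in controls, and fell by 0.95 (SE 0.20, adjusted p = 0.00243 in limma). Ndufa11 measured 9.0, 9.16 and 10.02 TPM in low NaHCO3 libraries, against 26.8, 22.4 and 15.6 TPM in controls. It fell by 1.09 (SE 0.26, adjusted p = 0.00415 in limma). Control 1 was its highest library, and without it the change was -0.92. Ndufb7 and Ndufa5 fell as well under both scalings, by 0.82 and 0.80 on the TPM scale. Ndufb9, Ndufb2, Ndufc2, Ndufb4, Ndufs6, Ndufa12 and Ndufab1, with changes between -0.85 and -0.30, were called on the TPM scale only. Without control 1 the change of Ndufb2 was -0.42 (adjusted p = 0.0423 in limma), and Ndufb4 was not called (adjusted p = 0.0654).

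The member with the smallest adjusted p was not a subunit but an assembly factor. Ndufaf4, needed to build the complex I arm that binds ubiquinone, measured 24.2, 27.4 and 22.9 TPM in low NaHCO3 libraries, against 60.3, 62.8 and 64.8 TPM in controls. Every low NaHCO3 library lay below all 9 others, and the level fell by 1.30 (SE 0.10, adjusted p = 3.34e-06 in limma, and 1.52e-06 without control 1). Ndufaf2, which acts late in assembly, fell by 0.73 (SE 0.16, adjusted p = 0.00265 in limma). Ndufaf7, a mitochondrial methyltransferase, was higher, at 45.8, 49.9 and 47.8 TPM in low NaHCO3 libraries, against 38.3, 33.9 and 33.5 TPM in controls. Its log2 change was 0.43 ± 0.16 (SE), with an adjusted p of 0.0424 in limma. The other 5 complex I assembly factors did not pass the test, among them the most abundant, Ndufaf1, at 53.6, 47.3 and 48.4 TPM in low NaHCO3 libraries, against 55.2, 56.1 and 66.7 TPM in controls.

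Promoters are shown for 4 members that changed in low NaHCO3 cells, a pair that fell (Ndufaf4 and Atp5j) and a pair that was higher (Ndufs7 and Atp5b), since factors that bind near the start sites of respiratory genes are known. The sequences are from RefSeq on GRCm38.p6, run 5′ to 3′ on the gene's strand from 250 bases before to 50 after the start, and capitals mark a searched motif.
Ndufaf4 (chr4:24897833-24898132, plus strand): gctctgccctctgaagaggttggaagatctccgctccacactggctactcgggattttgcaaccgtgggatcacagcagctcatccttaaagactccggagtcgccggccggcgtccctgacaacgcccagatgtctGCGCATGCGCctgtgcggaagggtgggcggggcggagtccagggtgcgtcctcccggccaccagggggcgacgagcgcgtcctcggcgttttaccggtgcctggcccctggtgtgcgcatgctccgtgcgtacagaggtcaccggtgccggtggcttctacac
Atp5j (chr16:84834927-84835226, minus strand): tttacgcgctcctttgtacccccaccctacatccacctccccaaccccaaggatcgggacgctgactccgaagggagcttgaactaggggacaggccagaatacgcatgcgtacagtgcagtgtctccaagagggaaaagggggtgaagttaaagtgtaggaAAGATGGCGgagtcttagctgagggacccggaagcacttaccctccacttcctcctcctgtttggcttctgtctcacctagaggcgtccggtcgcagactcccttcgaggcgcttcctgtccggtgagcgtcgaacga
Ndufs7 (chr10:80249199-80249498, plus strand): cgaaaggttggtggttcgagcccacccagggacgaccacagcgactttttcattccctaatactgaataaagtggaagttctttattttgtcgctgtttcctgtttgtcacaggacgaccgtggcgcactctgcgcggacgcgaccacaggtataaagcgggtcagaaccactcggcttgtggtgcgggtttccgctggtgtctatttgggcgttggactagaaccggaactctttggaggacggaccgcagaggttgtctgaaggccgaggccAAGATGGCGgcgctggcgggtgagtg
Atp5b (chr10:128083057-128083356, plus strand): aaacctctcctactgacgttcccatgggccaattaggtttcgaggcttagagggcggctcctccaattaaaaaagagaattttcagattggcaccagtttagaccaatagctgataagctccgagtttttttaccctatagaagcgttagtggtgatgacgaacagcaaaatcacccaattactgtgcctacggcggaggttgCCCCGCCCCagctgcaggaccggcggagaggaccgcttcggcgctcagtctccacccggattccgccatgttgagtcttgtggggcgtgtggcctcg
The Ndufaf4 promoter holds the palindromic NRF1 motif, those of Atp5j and Ndufs7 the YY1 motif AAGATGGCG, and that of Atp5b the SP motif GGGGCGGGG on the opposite strand. The window of a second Atp5j start in the RefSeq table, not printed, held none of the motifs. So the same YY1 letters stood in the window of a member that fell and of one that was higher.

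On both strands, 72 of the 87 members with a RefSeq promoter were searched. NRF1 letters stood in 17 of them (23.6%), against 11.8% of 9518 tested genes and 5.19% of all 27025 genes in the table. YY1 letters stood in 8 (11.1%), against 3.67% of tested genes. GABPA letters, CCGGAAGT, stood in 5 (6.94%), against 9.59%. SP letters stood in 11 (15.3%), against 25.6%, and ESRRA letters, TCAAGGTCA, in 1 (1.39%), against 0.305%. Among the 20 searched members lower in low NaHCO3 cells, 6 held NRF1 letters, as did 1 of the 7 that were higher and 10 of the 45 not called. A match is no proof of a binding site, and these shares carry no test.

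In complex III, 0 of 8 members were higher in low NaHCO3 cells and 2 lower on the TPM scale, against 20.5% and 35.8% of all tested genes. Uqcrc1, a core protein, measured 117, 120.3 and 121 TPM in low NaHCO3 libraries, against 142, 148 and 145 TPM in controls, and fell by 0.27 (SE 0.06, adjusted p = 0.00428 in limma). The groups lay apart, but with median-of-ratios scaling its change was -0.07 with an adjusted p of 0.35. Uqcrb, a small subunit, fell by 0.37 (adjusted p = 0.0296 in limma) and likewise lost its call under that scaling. The most abundant members were not called: Uqcrh, the hinge protein at cytochrome c1, was at 553, 538 and 645 TPM in low NaHCO3 libraries, against 495, 521 and 473 TPM in controls, and Uqcr10 at 379.8, 326 and 407 TPM, against 377, 517 and 454 TPM.

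In complex IV, 3 of 17 tested members were higher in low NaHCO3 cells and 4 lower, against 20.5% and 35.8% of all tested genes. The 4 include Cox8b and Ndufa4l2, whose part in the count is a description only. Cox7a2l, a relative of Cox7a2 that joins complex III and complex IV into supercomplexes, measured 468, 460.0 and 490.4 TPM in low NaHCO3 libraries, against 276, 316 and 331 TPM in controls. All low NaHCO3 libraries exceeded all others of the series, and the log2 change was 0.62 ± 0.16 (SE), with an adjusted p of 0.00626 in limma and 0.0114 without control 1. Cox7a2 itself, the widely expressed isoform, was at 681, 615 and 589.9 TPM in low NaHCO3 libraries, against 321, 448 and 395 TPM in controls. Its log2 change of 0.71 ± 0.28 (SE) had an adjusted p of 0.0495 in limma, and 0.107 without control 1, where the call was lost. Cox8a measured 1542, 1559 and 1517 TPM in low NaHCO3 libraries, against 908, 1243 and 1286 TPM in controls, a change of 0.44 that was not called on the TPM scale (adjusted p = 0.0795 in limma). Cox5b and Cox7b, both widely expressed, fell by 0.57 and 0.54 on the TPM scale and were not called with median-of-ratios scaling. Cox5b also lost its call without control 1 (adjusted p = 0.0627 in limma). Cox4i1 and Cox6b1, which are among the most abundant subunits, had adjusted p-values of 0.97 and 0.733, with changes of -0.01 ± 0.22 and 0.11 ± 0.25 (SE).

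The muscle-type isoforms Cox8b and Cox6a2 differed in direction. Cox8b measured 6.82, 6.95 and 5.12 TPM under 15% CO2, 1.64, 0.595 and 0.498 TPM with lactic acid and 0, 0.695 and 1.48 TPM in low NaHCO3, against 6.73, 5.46 and 3.42 TPM in controls. The low NaHCO3 and lactic acid libraries lay below all controls, with log2 changes of -1.90 ± 0.34 in low NaHCO3 and -1.71 ± 0.34 with lactic acid (SE). Cox8b passed the filter only through the 15% CO2 and control libraries, where it was high, so these values and its calls in every comparison are a description of a gene at a few TPM, with no weight as a test.

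Cox6a2 measured 40.3, 37.8 and 35.6 TPM with lactic acid, 24.6, 27.6 and 26.3 TPM in low NaHCO3 and 24.6, 22.9 and 16.7 TPM under 15% CO2, against 13.4, 13.8 and 21.8 TPM in controls. Lactic acid libraries were the highest of all 12 and low NaHCO3 libraries also lay above the controls, while 15% CO2 and control overlapped. Its log2 change was 1.20 ± 0.18 with lactic acid and 0.68 ± 0.18 in low NaHCO3 (SE), with adjusted p-values of 0.0105 and 0.00825 in limma, and 1.08 and 0.56 without control 1 (adjusted p = 0.00416 and 0.0176). Against its widely expressed partner Cox6a1, Cox6a2 made up 7.42, 6.95 and 9.67% of the summed TPM of the pair with lactic acid, against 2.77, 2.47 and 3.92% in controls.

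The sum of other muscle transcripts, present in these libraries, did not follow Cox6a2. The summed level of 12 muscle markers was 471 to 575 TPM under 15% CO2, 249 to 261 TPM with lactic acid and 158 to 182 TPM in low NaHCO3, against 252 to 304 TPM in controls, and control 1 was the highest library for 0 of the 12. In low NaHCO3 cells, 7 of the 11 tested muscle markers were lower and 1 higher, against 35.8% and 20.5% of all tested genes. With lactic acid 1 was higher and 1 lower, against 2.73% and 1.68%. Under 15% CO2 7 were higher and 0 lower, against 1.34% and 0.0667%. Without control 1, 3 were higher and 2 lower with lactic acid, against 1120 and 876 of 11941 tested genes. Under 15% CO2 the counts were then 10 and 0, against 722 and 195. The part of these transcripts in the isoform levels was not tested. Of the other alternative isoforms, Cox7a1 ran from 1.40 to 6.98 TPM with overlapping groups, while Cox4i2, listed at 0 in 5 of the 12 libraries, was highest in control 1 at 3.07 TPM. Cox7b2 was far more abundant, from 75.9 to 167 TPM, also with overlapping groups. Ndufa4l2, known to be induced by low oxygen, measured 0.728, 0.685 and 0.731 TPM in low NaHCO3 libraries, against 5.90, 1.40 and 1.35 TPM in controls. Its log2 change was -0.98 ± 0.36 (SE), and -0.47 without control 1, its highest library. It did not pass the filter through low NaHCO3, so its call there is likewise a description only, and the call was lost with median-of-ratios scaling. Its partner Ndufa4 had a change of -0.29 with an adjusted p of 0.305.

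**Figure D4:**
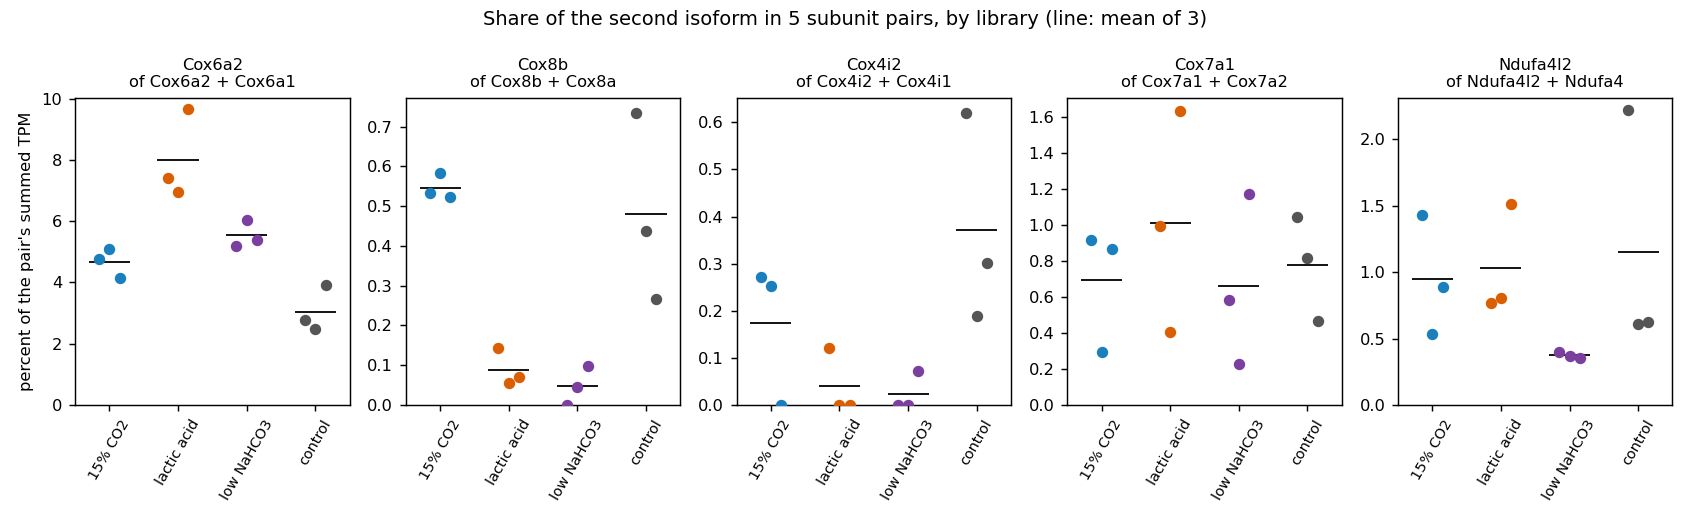
Each panel gives, by library, the percent that an alternative isoform makes up of the summed TPM of an isoform pair, with a line at the mean of 3 libraries; the y axes start at 0 and differ in range. Cox6a2 is highest in the lactic acid libraries (6.95 to 9.67%), and Cox8b stays at or below 0.142% in the lactic acid and low NaHCO3 libraries.

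In ATP synthase, 5 of 17 members were called in low NaHCO3 cells, where 56.2% of all tested genes were. On the TPM scale 3 of its 17 members were higher in low NaHCO3 cells and 2 lower, and with median-of-ratios scaling 7 were higher and 2 lower. Both that fell belong to the peripheral stalk, which holds the catalytic head still and has 4 members here. Of the 5 genes of the head and central stalk 1 was higher, of the 3 for the ring 1 was higher, and the third was factor B. Atp5j, coupling factor 6 of that stalk, measured 79.5, 77.0 and 70.2 TPM in low NaHCO3 libraries, against 131, 149 and 143 TPM in controls. It fell by 0.89 (SE 0.13, adjusted p = 0.000183 in limma). Atp5f1, subunit b, measured 259, 264 and 270.2 TPM in low NaHCO3 libraries, against 324, 406 and 408 TPM in controls, and fell by 0.51 (SE 0.10, adjusted p = 0.00178 in limma). Both were called under both scalings, with low NaHCO3 libraries below all others. The other peripheral stalk genes, Atp5h and Atp5o, were not called. Of the 50-base stretches of their transcripts, 50.3% for Atp5o, 47.9% for Atp5h, 38.7% for Atp5f1 and 16.3% for Atp5j also occur in transcripts of other genes, so the values of these genes are uncertain to that extent.

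Atp5b, in the head, measured 1962, 1899 and 1943 TPM in low NaHCO3 libraries, against 1213, 1546 and 1507 TPM in controls. The low NaHCO3 libraries were the highest of the series, and the log2 change was 0.45 ± 0.14 (SE), with an adjusted p of 0.019 in limma and 0.0246 without control 1. Atp5a1, the alpha subunit beside it in the head, measured 999, 996 and 1017 TPM in low NaHCO3 libraries, against 938, 935 and 908 TPM in controls. Its change of 0.12 ± 0.11 (SE) was not called on the TPM scale, with an adjusted p of 0.396 in limma, and was called with median-of-ratios scaling at 0.31 (adjusted p = 0.0167).

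The 3 genes for subunit c of the ring encode the same mature protein. Atp5g2 measured 318, 332 and 345 TPM in low NaHCO3 libraries, against 195, 255 and 252 TPM in controls, a change of 0.51 ± 0.20 (SE) with an adjusted p of 0.0478 in limma, and of 0.115 without control 1, where the call was lost. Atp5g3 measured 245, 247 and 245 TPM in low NaHCO3 libraries, against 339, 407 and 379 TPM in controls. Its change of -0.60 ± 0.25 (SE) had an adjusted p of 0.0622 in limma, and that of Atp5g1, -0.57 ± 0.23, one of 0.0591. Neither reached the threshold, though in both the low NaHCO3 libraries lay below all controls. Atp5s, factor B, which is needed for coupling, was higher, at 31.3, 30.0 and 24.5 TPM in low NaHCO3 libraries, against 21.8, 16.4 and 15.5 TPM in controls (log2 change 0.66 ± 0.15 SE, adjusted p = 0.00431 in limma).

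**Figure D5:**
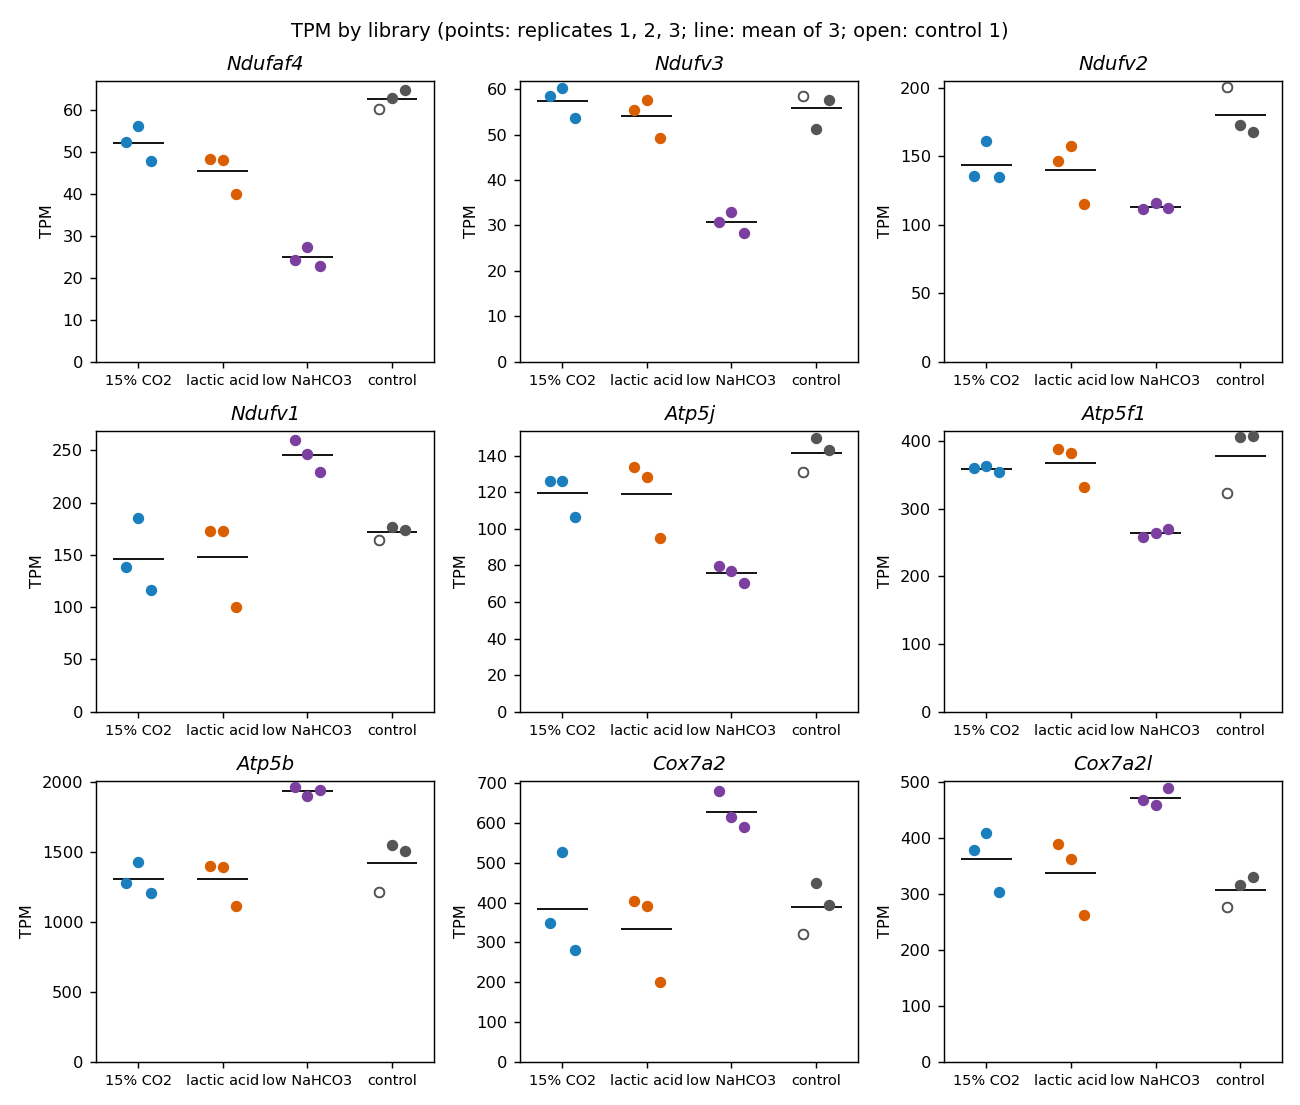
Each panel gives the TPM of a member in every library, with a line at the mean of 3 and control 1 drawn open; the y axes start at 0. In low NaHCO3 libraries Ndufaf4, Ndufv3, Ndufv2, Atp5j and Atp5f1 lie below all controls, while Ndufv1, Atp5b, Cox7a2 and Cox7a2l lie above them.

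Few members differed between lactic acid and control. On the TPM scale 1 was higher, Cox6a2, and 2 lower, Ndufaf4 and, as a description only, Cox8b, while of all tested genes 4.4% were called, 2.73% higher and 1.68% lower. The median member changed by -0.36, against -0.03 over all tested genes, with 81 of 86 members below 0. With the length trend removed it changed by -0.22, against 0.02 over all tested genes, with 70 members below 0. Without lactic acid 3 the member median was -0.10, and 1 member was higher and 0 lower, against 82 and 35 of 11934 tested genes. The members' counts were also 1 and 0 without lactic acid 2 or control 2. Without control 1, 1 member was higher and 5 were lower, the additional ones being Ndufa5, Ndufb2 and Ndufaf2. Of all 11941 genes tested there 16.7% were called, 1120 higher and 876 lower. Ndufaf4 measured 48.2, 48.2 and 40.01 TPM with lactic acid, against 60.3, 62.8 and 64.8 TPM in controls, and fell by 0.46 (SE 0.10, adjusted p = 0.0345 in limma). Its lactic acid libraries all lay below the controls, but without lactic acid 3 the change of -0.37 was not called (adjusted p = 0.106).

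Under 15% CO2, 0 of 86 members were called with all 12 libraries, where 1.41% of all tested genes were, 1.34% higher and 0.0667% lower. Over all genes, 1901 had an unadjusted p under 0.05. The median member changed by -0.28, against 0.01 over all tested genes, and 76 of 86 members lay below 0. With the length trend removed it changed by -0.192, against 0.019 over all tested genes, and without 15% CO2 3 by -0.188, against 0.044. The members furthest below 0 included Atp5k, a small membrane subunit of ATP synthase, at 98.9, 99.7 and 90.2 TPM under 15% CO2, against 192, 205 and 165 TPM in controls, and Ndufa5, at 84.7, 98.8 and 68.6 TPM, against 139, 141 and 132 TPM. Their ranges lay below the controls, but their changes of -0.95 ± 0.31 and -0.72 ± 0.19 (SE) had adjusted p-values of 0.176 and 0.0966 in limma. The count depended on the libraries: without control 1 it was 0 higher and 0 lower, where 7.68% of all genes were called. Without lactic acid 3 it was 0 higher and 3 lower, against 178 and 29 of 11934 tested genes. Lactic acid 3 enters this comparison only through the shared estimate of the spread and the set of genes tested. A fit without control 1 and lactic acid 3 was added after seeing the data, and it kept 15% CO2 3. There the count was 0 higher and 29 lower, against 10.4% of all genes higher and 6.75% lower. Atp5k (adjusted p = 0.00522 in limma) and Ndufa5 (adjusted p = 0.0075) were among those lower. As these libraries were picked after their values were seen, this count is a description. With 15% CO2 3 left out as well, 1 member was higher and 19 lower, against 9.33% and 5.13% of all genes.

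Between the treatments, low NaHCO3 again differed from the others in both directions. These comparisons share their low NaHCO3 libraries with the one above, so they are no separate support for it. Of 86 members, 11 were higher and 11 lower under 15% CO2 than in low NaHCO3, where 34.6% and 18.1% of all tested genes were. With lactic acid, 7 were higher and 15 lower than in low NaHCO3, against 31.7% and 18.3% of all genes. With median-of-ratios scaling the split was 4 higher and 35 lower under 15% CO2, against 24.5% and 29.5% of all genes, and 4 higher and 36 lower with lactic acid, against 23.3% and 28.5%. Without 15% CO2 3, 9 members were higher and 2 lower under 15% CO2 than in low NaHCO3, against 3734 and 1627 of 11883 tested genes. Without lactic acid 3, 15 members were higher and 7 lower with lactic acid than in low NaHCO3, against 3509 and 1685 of 11934 tested genes. In the 15% CO2 comparison 12 members were then higher and 25 lower, against 4181 and 2296 of all genes. Without 15% CO2 1, or without low NaHCO3 1, 2 or 3, the 15% CO2 comparison had between 9 and 13 members called, and without low NaHCO3 1 or 2 the lactic acid comparison had 12 and 14.

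Ndufaf4, Ndufv3 and Atp5j were among the 5 highest in both. Under 15% CO2 their log2 changes relative to low NaHCO3 were 1.04 ± 0.10, 0.88 ± 0.09 and 0.65 ± 0.13 (SE), and with lactic acid they were 0.84 ± 0.10, 0.80 ± 0.09 and 0.63 ± 0.13. Ndufb8 was also higher, by 0.55 ± 0.20 and 0.66 ± 0.20. Cox6a2 was higher with lactic acid than in low NaHCO3, by 0.52 ± 0.18. Cox8b, as a description only, was at 2.17 ± 0.34 under 15% CO2 relative to low NaHCO3. Among the lowest in both were Atp5e, the epsilon subunit of the head, at -0.91 ± 0.32 and -1.09 ± 0.32, Ndufv1 at -0.76 ± 0.21 and -0.77 ± 0.21, Cox7a2 at -0.75 ± 0.28 and -0.98 ± 0.28, and Ndufb11 at -0.68 ± 0.23 and -0.89 ± 0.23. Atp5g2 was lower under 15% CO2, at -0.68 ± 0.20, and Uqcrh with lactic acid, at -0.70 ± 0.24. Of the 15% CO2 changes, those of Atp5e, Cox7a2, Ndufb11, Ndufb8 and Atp5g2 were not called without 15% CO2 3, and without lactic acid 3 those of Uqcrh and Cox6a2 with lactic acid were not. With median-of-ratios scaling Ndufb8 lost its call in both comparisons and Cox6a2 in that with lactic acid.

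Set directly against lactic acid, 15% CO2 had 1 member called, Cox8b, where 0.333% of all tested genes were called. Since Cox8b entered the tests only through groups in which it was high, its log2 change of 1.97 ± 0.34 (SE) is a description, and no other member was called with all 12 libraries. Cox6a2 was at -0.81 ± 0.18 (SE) in the same comparison, with an adjusted p of 0.12 in limma, and of 0.0188 without control 1.

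Genes that work with the members were read from lists of complex II, cytochrome c, assembly factors, biogenesis regulators and mitochondrially encoded subunits. Their counts stand beside the 20.5% of all tested genes higher and 35.8% lower in low NaHCO3 cells, and 23.3% and 41.4% without control 1. In low NaHCO3 cells complex II, which feeds electrons from succinate, had 0 of 4 genes called in limma with or without control 1. Among further complex IV assembly factors 3 of 21 were higher and 5 lower, and without control 1 there were 4 and 7. Cox17, the copper chaperone of complex IV, measured 19.5, 19.2 and 19.7 TPM in low NaHCO3 libraries, against 6.71, 6.36 and 6.92 TPM in controls, a log2 change of 1.42 ± 0.12 (SE, adjusted p = 5.66e-06 in limma). It was also higher under 15% CO2, at 11.4, 12.3 and 9.49 TPM, by 0.65 ± 0.12 (adjusted p = 0.0267). Coa7, another factor of complex IV assembly, measured 3.93, 5.00 and 5.06 TPM in low NaHCO3 libraries, against 16.2, 15.5 and 14.8 TPM in controls, and fell by 1.55 (SE 0.12, adjusted p = 3.27e-06 in limma). Cox10, which acts in heme A synthesis, fell by 1.28 (adjusted p = 5.12e-06).

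Of the other lists, complex III assembly had 3 of 6 lower and 0 higher, further complex I factors 1 of 9 higher and 1 lower, complex II assembly 2 of 3 lower, and ATP synthase assembly 1 of 5 lower. Without control 1, complex III assembly had 2 lower, further complex I factors 2 higher and 1 lower, complex II assembly 1 lower, and ATP synthase assembly 1 lower. Of the 2 genes listed beside complex III, cytochrome c1 (Cyc1) fell by 0.63 (adjusted p = 0.00795 in limma) and cytochrome c (Cycs) was at -0.34 (adjusted p = 0.0681). Without control 1 both were lower, Cycs by a log2 change of -0.53 (adjusted p = 0.000214 in limma). The regulators had 1 of 11 higher and 3 lower, and without control 1 they had 1 higher and 5 lower. Ppargc1a, a coactivator of mitochondrial biogenesis, measured 0.322, 0.266 and 0.162 TPM in low NaHCO3 libraries, against 37.9, 2.59 and 2.58 TPM in controls, so control 1 stood far above the others. Its log2 change was -2.67 ± 0.71 (SE), and -1.52 without control 1. Ppargc1a did not pass the filter through low NaHCO3, so its change and its part in the counts are a description only. Nrf1 was at -0.22 with an adjusted p of 0.16, and without control 1 at -0.35 (adjusted p = 0.00964 in limma).

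The mitochondrially encoded subunits had 8 of 13 lower and 0 higher in low NaHCO3 cells, with or without control 1, with a median log2 change of -1.09. mt-Nd1, a membrane subunit of complex I, measured 7420, 7840 and 7864 TPM in low NaHCO3 libraries, against 43413, 39502 and 41803 TPM in controls, and fell by 2.43 (SE 0.41, adjusted p = 0.000528 in limma). mt-Co1, the catalytic subunit of complex IV, was at 62196, 60277 and 66269 TPM, against 57077, 42799 and 45806 TPM, a change of 0.38 with an adjusted p of 0.568. With lactic acid 2 of the 13 were higher and 1 lower, and under 15% CO2 0 were called in limma, or 1 higher without control 1.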

How the data were processed

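RNA-seq of 12 libraries was used, 3 per condition. The authors deposited 1 table of TPM values per gene and library; per the submitters' processing notes, fastp 0.22.0, HISAT2 2.1.0 and the GRCm39 genome were used, while counter, annotation and strand setting were not found in the labels. TPM keeps no read depth, so the depth is unknown and no counting interval is given. Ensembl IDs were given symbols from the annotation tables (21851 of 21959 matched), and transcript lengths came from GENCODE release M 21.

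The test took the 11996 genes that reached 1 TPM in all 3 libraries of some condition. A group-means model over the 12 libraries was fitted to log2(TPM + 1) with limma 3.58.1 in R 4.3.3 (moderated two-sided test with a trend, Benjamini-Hochberg within each of 6 comparisons, threshold 0.05). It was tested on simulated data. Alternatives were other pseudocounts, filters, scalings and fits, a replicate block, libraries left out, and a length trend removed. No test was made over the members as a set.

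The members, gene lists and tests were chosen with earlier results of these data known, and the roles of members were assigned after their values were seen. Members named are the 5 highest and 5 lowest called per comparison, the 2 most abundant per complex, a panel of isoform genes, and others that complete a module or a role, the last chosen after their values were seen. Of the members this names, 1 is not reported here; it stays in the counts.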

Additional observations from a re-analysis of the deposited data

How the results depend on the processing

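The members' counts are given below as calls in either direction. The number of all tested genes called moved with the alternatives as well, so a moved count is no result about the members alone. With all 12 libraries they were 0 for 15% CO2 against control, 3 for lactic acid against control, 31 for low NaHCO3 against control, 1 for 15% CO2 against lactic acid, and 22 each for 15% CO2 and for lactic acid against low NaHCO3. Leaving out each library in turn gave 0 to 3, 1 to 6, 18 to 45, 0 to 3, 9 to 37 and 12 to 28 in that order. Among the 34 changes of named members, 0 of 879 alternatives turned the direction, 107 lost the call, and 19 changes were called under every alternative. These 34 were picked as the furthest called changes in the same data, so a kept direction is no separate support for them. They include the changes of Cox8b and Ndufa4l2, which are a description only. Why the counts moved was not tested. The single call between 15% CO2 and lactic acid is Cox8b, which passed the filter only where it was high. With TPM as the only unit, depth and counting error are unknown, and a gene near 1 TPM is read with the least precision.

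For 15% CO2 against control the count was 1 without the mitochondrial and 10 most abundant genes and 1 with the length trend removed. For lactic acid against control it was 5 with median-of-ratios scaling, 6 with quantile normalization, 6 without the mitochondrial and most abundant genes, and 0 in a fit of the 2 groups alone. For 15% CO2 against lactic acid it was 0 with a pseudocount of 0.1, with no filter, with the filter over 12 libraries, and with both scalings, and 2 in the fit of the 2 groups alone. For 15% CO2 against low NaHCO3 it was 14 with no filter, 39 with median-of-ratios scaling and 47 in the fit of the 2 groups alone. For lactic acid against low NaHCO3 it was 40 with median-of-ratios scaling and 34 with the length trend removed. For low NaHCO3 against control, the length trend removed gave 19 higher and 20 lower, against 3663 and 2988 of 11996 tested genes. The member median was then -0.085, against 0.034 over all tested genes.

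Without control 1, median-of-ratios scaling gave 2 for 15% CO2 against control, 15 for lactic acid against control, 3 for 15% CO2 against lactic acid, 46 for 15% CO2 against low NaHCO3 and 45 for lactic acid against low NaHCO3. Without control 1 and with the length trend removed, an alternative added after seeing the data like the length trend itself and the pairs and trios of libraries left out, the same counts were 4, 17, 3, 40 and 45. Without control 1 and lactic acid 3 the 6 counts, in the order first given, were 29, 5, 52, 5, 50 and 36. Of all 11841 genes tested there, 1236 were higher and 799 lower, 1104 and 688, and 3062 and 5217 in the comparisons with control. Between the treatments, in the same order, they were 399 and 362, 5674 and 3206, and 5318 and 2708. With 15% CO2 3 left out as well, the members' counts were 20, 16, 55, 2, 49 and 43. For low NaHCO3 against control, 3174 of all 11116 genes tested there were higher and 4840 lower.

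The labels state no pairing of libraries by replicate number. Of 18 same-numbered pairs, 3 had deviations that correlated above 0.1, and the correlations ran from -0.15 to 0.49. Of 36 pairs with different numbers, 5 did, and the correlations ran from -0.48 to 0.39. Since each deviation is taken from a mean of 3 libraries, these values cannot exclude a pairing. With the replicate number as a block the 6 counts were 0, 4, 36, 0, 23 and 21. Without control 1 and with the block they were 1, 16, 34, 3, 31 and 34.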

Other observations

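The 4 genes whose symbol matched but that were left out were as follows. Ndufb1-ps, whose symbol marks it as a pseudogene, was listed at 50.9, 49.2 and 71.7 TPM in low NaHCO3 libraries, against 81.4, 94.0 and 80.2 TPM in controls. Cox6b2, a testis-type isoform, reached 1.16 TPM in a treated library and 3.46 TPM in control 1. Cox8c was listed at 0 in all libraries but low NaHCO3 2, where it was at 0.546 TPM. A second Ensembl ID with the symbol Atp5o was listed at 0 in all 12 libraries.

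Transcripts of 2 members, Atp5l and Atp5o, share most of their 50-base stretches with transcripts of other genes (84.8% and 50.3%), and 27 of the 87 share more than 10%. The levels of these members depend on how such reads were assigned, and 41 members share none.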
